A study of Caenorhabditis elegans with 66 samples.

Results

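Cluster I is the smaller of the 2 dense groups of piRNA loci on chromosome IV of *Caenorhabditis elegans*. Its members were taken by position alone, as 21UR loci that start between 4500000 and 7000000 on chromosome IV (genome build WBcel235, the same assembly as ce11), with 1 locus left out. By this rule 789 loci had at least 1 precursor read, of 11511 loci in the precursor table, and 833 had a mature value, of 4317 piRNA genes in the mature table. Together these are 1247 members of 13193 loci in either table, and 375 members were in both, which is 47.5% of the members with precursors and 45.0% of those with a mature value. The outermost members of the precursor table spanned positions 4789336 to 6994431.

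piRNAs are germline small RNAs bound by the Argonaute PRG-1, and in *C. elegans* most are 21 nt long, begin with U and are therefore called 21U RNAs. Each motif-dependent locus is its own small transcription unit: RNA Pol II starts a short capped RNA just upstream of the 21U sequence, downstream of a conserved upstream motif, and the precursor is then trimmed at both ends. RPB-9 is a small, non-catalytic subunit of RNA Pol II known in yeast for roles in start site selection and elongation.

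The precursor libraries hold capped RNA of short length. Worms kept at 20 °C were taken as young adults, their germ nuclei were split into RNA held on chromatin (the nascent fraction) and RNA free in the nucleoplasm (the nucleoplasmic fraction), and each genotype gave 2 libraries per fraction. The genotypes were wild type, *rpb-9* (*mj261*), a premature stop allele recovered after EMS mutagenesis in a screen with a germline piRNA sensor transgene, and rescue (*mj261; mjSi70*), which carries the same allele with an *rpb-9* coding sequence driven by the germline promoter *pmex-5*, so that RPB-9 is returned to the germline and not by its own promoter. Mature piRNAs were measured in whole animals of the same genotypes from 5′ dependent small RNA libraries, for which 1 value per genotype was deposited. Nothing in the labels says that the libraries of a genotype came from separate cultures, so that tests over them measure the spread between libraries, which may be technical.

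The nascent libraries held 849975 to 1606901 counts in the precursor table and the nucleoplasmic libraries 516059 to 1570354. A single locus outside cluster I took 24.1% to 42.1% of the nascent and 78.2% to 92.3% of the nucleoplasmic counts. Cluster I received 633 to 6102 counts in the nascent libraries and 31 to 434 in the nucleoplasmic libraries, which limits the nucleoplasmic comparisons. In bulk nuclei, fewer nuclei of a type and less RNA per nucleus cannot be told apart.

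The sequences of the most counted and the most abundant members show the layout that the loci share. Every precursor in the table started 2 nt upstream of the annotated piRNA, at loci without a 21UR name as well. The paper describes an enrichment of read starts at that position, so the table was probably limited to such reads. The shared start is therefore not read as a result. The 42 genomic bases from that start are given below from the RefSeq genome (WBcel235), with the 21 bases of the annotated piRNA in capitals. Most precursors ended before the last of these bases, with a median nascent length of 28 and 27 nt over distinct sequences of cluster I in wild type. The first 3 loci had the most precursor counts in wild type and the other 5 the highest mature value in wild type.
21UR-8044, chrIV:5326811-5326852, plus strand: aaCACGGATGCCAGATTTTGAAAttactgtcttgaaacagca
21UR-11795, chrIV:5177475-5177516, minus strand: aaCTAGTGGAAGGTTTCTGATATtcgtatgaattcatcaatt
21UR-103, chrIV:4835167-4835208, plus strand: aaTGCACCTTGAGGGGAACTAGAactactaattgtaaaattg
21UR-5141, chrIV:5829512-5829553, minus strand: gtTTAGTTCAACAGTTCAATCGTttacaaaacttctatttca
21UR-8059, chrIV:5447942-5447983, plus strand: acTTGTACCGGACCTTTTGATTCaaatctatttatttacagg
21UR-6090, chrIV:5288915-5288956, plus strand: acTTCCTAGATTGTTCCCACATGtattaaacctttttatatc
21UR-1804, chrIV:6048153-6048194, plus strand: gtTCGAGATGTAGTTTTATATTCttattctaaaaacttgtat
21UR-4199, chrIV:5564126-5564167, plus strand: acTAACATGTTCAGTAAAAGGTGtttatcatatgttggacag
The 2 most counted loci, 21UR-8044 and 21UR-11795, begin with C in the genome and not with T. They are among 29 of the 789 precursor members that do so or begin with another base, and 96.3% of these members and 99.3% of the mature members begin with T. The precursors themselves began with A in 69.9% and with G in 29.96% of 2490 distinct sequences, both purines.

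Upstream of the piRNA, the pentamer GTTTC, the core of the motif of motif-dependent loci, was searched in the 60 bases before the annotated start on the strand of the locus. It was present at 586 of 789 members (74.3%), against 72.3% in cluster II, 50.5% in 21UR loci elsewhere and 11.6% in windows of the same length before 19985 protein-coding genes. On the opposite strand it was present at 6.34% of the members and 6.69% of the protein-coding windows. The 60 bases before 4 of the loci above are shown with GTTTC in capitals.
21UR-8044: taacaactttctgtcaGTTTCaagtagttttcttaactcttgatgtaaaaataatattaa
21UR-103: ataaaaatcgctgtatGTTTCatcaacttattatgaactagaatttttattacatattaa
21UR-5141: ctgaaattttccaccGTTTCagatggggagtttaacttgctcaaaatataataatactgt
21UR-6090: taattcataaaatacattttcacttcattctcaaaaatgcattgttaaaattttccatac
The pentamer began 44 bases before the start at 21UR-8044 and at 21UR-103 and 45 bases before it at 21UR-5141. At 21UR-6090 these letters were not in the window.

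Most members lay within protein-coding genes. Of the 789 loci, 212 were inside a protein-coding gene on its strand, 231 were inside one on the other strand and 346 were outside protein-coding genes. Of those inside, 399 were in introns and 44 overlapped an exon. 21UR-8044 lies in an intron of *Y4C6B.4* on the same strand, 21UR-103 in an intron of *tat-2* on the other strand and 21UR-5141 in an intron of *egal-1* on the other strand. The strands were used about equally, with 384 members on the plus and 405 on the minus strand.

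The nascent precursors of cluster I fell in *rpb-9* to under the wild-type level, with the rescue in between. The signal is the number of counts times a constant that the authors set for each library. Summed over cluster I it was 1007 and 1164 in the wild-type libraries, 178 and 199 in *rpb-9* and 440 and 533 in the rescue. No library of one genotype overlapped those of another. The mean in *rpb-9* was 17.4% of wild type, which is 5.75-fold lower (189 ± 14.6 against 1085 ± 110, SD, n = 2), and the mean in the rescue was 44.8% of wild type. With 2 libraries against 2, the exact two-sided permutation test cannot give a p below 0.333, which is the value here.

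The nucleoplasmic fraction had the same order in its means. The summed signal was 714 and 471 in wild type, 122 and 46.8 in *rpb-9* and 332 and 492 in the rescue. The *rpb-9* libraries were below all others, while wild type and rescue overlapped. The mean in *rpb-9* was 14.3% of wild type, or 7.01-fold lower (exact permutation p = 0.333, n = 2), on the constants set by the authors. When scaled by the total counts of the table instead, the difference was -1.44 on the log2 scale in place of -2.81.

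The decrease was larger in cluster I than in cluster II, the other group on chromosome IV (5258 loci with precursors, nearer the right end of the chromosome). A comparison within a library needs no scaling between libraries, and so the counts of cluster I were taken as a share of the counts of both clusters. In the nascent fraction this share was 5.18% and 5.18% in wild type, 2.26% and 2.04% in *rpb-9* and 4.35% and 4.32% in the rescue. The Wilson 95% intervals of the 2 *rpb-9* libraries, 2.09% to 2.44% and 1.92% to 2.16%, lay below the lowest bound of the wild-type libraries (5.04%) and of the rescue libraries (4.12%). The intervals cover counting error only, because PCR copies were not told apart by molecular identifiers. The mean share fell by 3.03 percentage points from 5.18% ± 0.00130 to 2.15% ± 0.155 (SD, n = 2, exact permutation p = 0.333).

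In the nucleoplasmic fraction the share was 6.40% and 6.28% in wild type, 1.90% and 1.52% in *rpb-9* and 4.54% and 4.37% in the rescue. It fell by 4.63 percentage points in *rpb-9* (exact permutation p = 0.333, n = 2). In both fractions the rescue libraries lay between the other genotypes and overlapped neither. Each of the 6 comparisons of genotypes made on this share gave the smallest p that the design allows. Summed cluster II signal was 43.5% of wild type in *rpb-9* nascent libraries, beside 17.4% for cluster I.

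**Figure D1:**
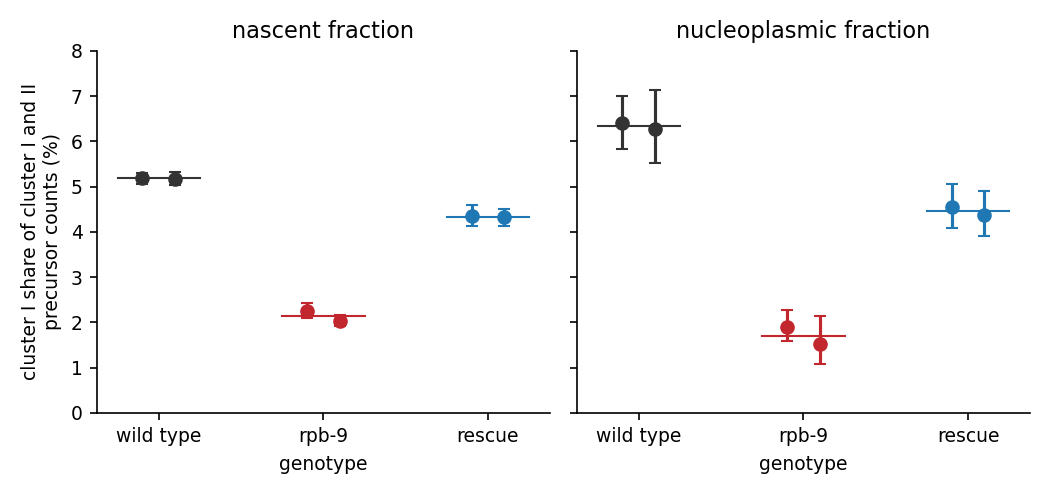
Share of cluster I in the precursor counts of clusters I and II (percent, y axis) by genotype (x axis), with 1 point per library, Wilson 95% intervals as bars and the mean of 2 libraries as a line. In both fractions the *rpb-9* libraries (1.52% to 2.26%) sit below the rescue libraries (4.32% to 4.54%), which sit below wild type (5.18% to 6.40%).

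The lower nascent share did not rest on a few loci. The 10 most counted members held 33.6% of the cluster I nascent counts in wild type, 29.7% in *rpb-9* and 27.8% in the rescue, and 29 members together held 50% of them in wild type. Without the 10 most counted loci of each cluster, the nascent share was 4.19% and 4.41% in wild type, 2.17% and 1.84% in *rpb-9* and 3.97% and 3.89% in the rescue. With only the loci that begin with T, which leaves out 21UR-8044 and 21UR-11795, it was 4.06% and 4.02%, 1.99% and 1.81%, and 3.88% and 3.70%. Nucleoplasmic counts were more concentrated, with 49.8% on the 10 most counted members in wild type and 72.2% in *rpb-9*. Without the 10 most counted loci of each cluster, the nucleoplasmic share was 4.12% and 4.76% in wild type and 1.42% and 0.868% in *rpb-9*.

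Fewer members were detected as well. Nascent precursors of 426 and 450 members were counted in the wild-type libraries, of 153 and 135 in *rpb-9* and of 258 and 383 in the rescue. Of 268 members with counts in both wild-type libraries, 143 (53.4%) had none in either *rpb-9* library, against 22.6% of 2449 such loci of cluster II. These loci were chosen by their wild-type counts and were not matched for level between the clusters. The number detected can move with depth, which was not tested. The first *rpb-9* library was the shallowest nascent library (849975 counts, 153 members). The second was the deepest (1606901 counts, 135 members).

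The single most counted member, 21UR-8044, was counted 796 and 690 times in the wild-type nascent libraries, 23 and 60 in *rpb-9* and 89 and 169 in the rescue. The groups did not overlap after scaling, with signals of 131 and 148, 6.48 and 11.5, and 29.9 and 45.0. Its log2 fold change in *rpb-9* was -3.94 (SE 0.448, edgeR quasi-likelihood test, Benjamini-Hochberg adjusted p = 0.00882). 21UR-11795, in an intron of the laminin gene *lam-1* on the other strand, had 395 and 375, 31 and 33, and 42 and 99 counts. Its log2 fold change was -3.28 (SE 0.454, edgeR adjusted p = 0.0103).

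Nascent counts of 21UR-103 were 187 and 168 in wild type, 20 and 52 in *rpb-9* and 40 and 70 in the rescue, with a log2 fold change of -2.08 (SE 0.456, edgeR adjusted p = 0.031). All 3 loci were highest in wild type and lowest in *rpb-9* in the nascent signal. These loci were chosen for their wild-type counts, which favours a high wild-type value in this order and in the tests against wild type. None passed the test of rescue against *rpb-9* (edgeR adjusted p = 0.167 for 21UR-8044, 0.256 for 21UR-11795 and 0.425 for 21UR-103).

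**Figure D2:**
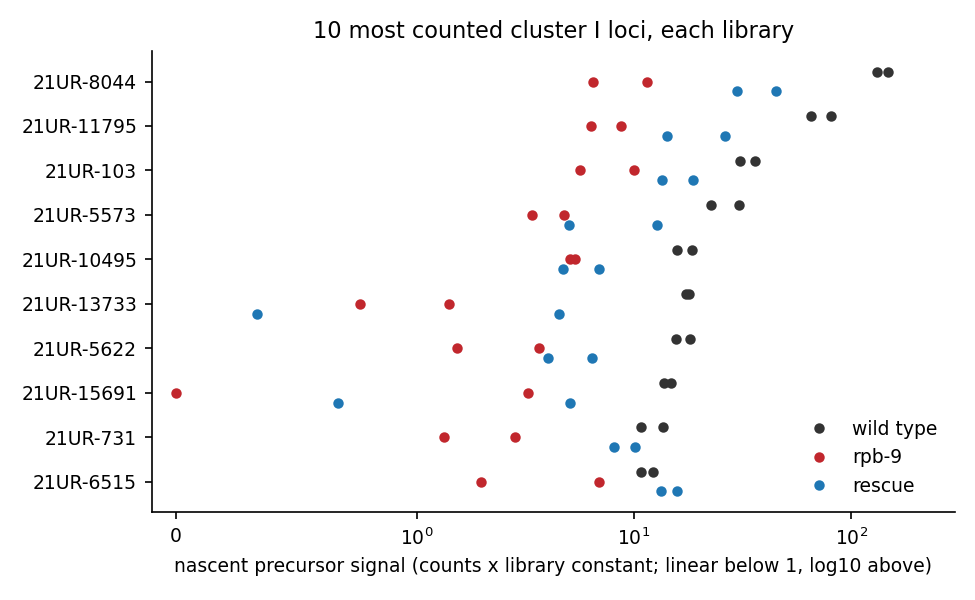
Nascent signal (counts times the library constant, x axis, linear below 1 and log10 above) of the 10 most counted cluster I loci (y axis), with 1 point per library coloured by genotype. At 21UR-8044 wild type lies at 131 and 148 and *rpb-9* at 6.48 and 11.5, and at all 10 loci both *rpb-9* libraries lie below both wild-type libraries. Wild type holds most nascent cluster I counts (11519, against 1674 in *rpb-9* and 3312 in the rescue). Ranking loci by counts therefore favours this order, which is not read as a result.

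The largest decreases were at loci with no nascent count in either *rpb-9* library. At 21UR-1816 the wild-type libraries held 68 and 39 counts, against 11 and 11 in the rescue. 21UR-3187, which overlaps an exon of the forkhead gene *fkh-7* on the other strand, had 79 and 21, and 14 and 10. 21UR-6424, outside protein-coding genes, had 47 and 46, and 7 and 9. Against a floor of 3 counts over the *rpb-9* group, the wild-type signal was at least 23.2-fold higher at 21UR-1816, at least 20.8-fold higher at 21UR-3187 and at least 20.9-fold higher at 21UR-6424 (edgeR adjusted p = 0.0123 for 21UR-1816 and 0.0206 for 21UR-3187). 21UR-6424 reached 10 counts in the wild-type libraries alone, so it had to differ and its test is not given.

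Across the table, 3163 loci passed the minimum of 10 counts in at least 2 nascent libraries, and 4.27% of them were called lower in *rpb-9* and 2.43% higher (edgeR, adjusted p under 0.05). Of the 87 members that passed, 21 were called lower and 0 higher. Their median log2 fold change was -2.94, beside -0.21 over all loci tested. Of the 87 members, 59 (67.8%) passed only with the help of the wild-type libraries. So did 830 of all 3163 loci tested and 552 of 1292 loci of cluster II (42.7%). Of the 21 called members, 10 were among those 59. At such loci the minimum favours a decrease, so the count and the median describe the members that passed. They are not compared with cluster II, and their distance from all loci tested is not read as a result. The call rests on all 4 libraries: the count was 3 and 7 without either wild-type library, 6 without the first *rpb-9* library and 0 without the second.

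In the comparison of rescue with *rpb-9*, 0 of 87 members and 0% of all loci were called in either direction with edgeR, while 26 members were higher and 0 lower at an unadjusted p under 0.05, a threshold that 8.31% of all loci passed upwards and 3.16% downwards. DESeq2 called 4 of the 87 members higher, but its share over all loci is not given here, so this number is not read as a result. Of the nucleoplasmic loci, 4 members were among 380 tested, and 0% of all loci were called in either comparison. With edgeR, 2 of these 4 members were lower in *rpb-9* at an unadjusted p under 0.05, as were 8.68% of all loci (5.53% were higher), and 2 were higher in the rescue than in *rpb-9*, as were 11.3% of all loci (2.11% were lower). DESeq2 called 0 members in both.

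The nascent decrease was present in every 500 kb bin, on both strands and in every gene context. By bins of 500 kb, the nascent signal in *rpb-9* was 19.2% of wild type from 4500001, 11.7% from 5000001, 20.8% from 5500001 and 18.6% from 6000001. It was 39.5% in the last bin from 6500001, which holds 40 members and 256 wild-type counts, with 5.64 and 13.4 in the *rpb-9* libraries against 22.8 and 25.3 in wild type. It was 16.1% on the plus and 19.1% on the minus strand, and 14.1% inside genes on the same strand, 19.02% inside genes on the other strand and 19.3% outside. With and without GTTTC upstream, it was 17.9% and 15.6%. With the members in 3 equal groups by the A+T share of the 30 bases after the annotated piRNA, it was 20.6%, 18.4% and 14.7% from the lowest to the highest share. No test was made of these splits.

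Nascent precursors of cluster I were also longer in *rpb-9*. The median over distinct sequences was 28 and 27 nt in the wild-type libraries, 30 and 31 nt in *rpb-9* and 26 and 26 nt in the rescue. The *rpb-9* libraries were above all others and differed from wild type by 3 nt (exact permutation p = 0.333, n = 2). Weighted by counts, the medians were 28 and 27, 29 and 30, and 26 and 26 nt. Precursors of at least 38 nt made up 12.0% and 9.65% of the counts in wild type, 21.8% and 23.6% in *rpb-9* and 9.69% and 7.54% in the rescue. The share was 22.7% ± 1.29 in *rpb-9* against 10.8% ± 1.64 in wild type (SD, n = 2, exact permutation p = 0.333).

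**Figure D3:**
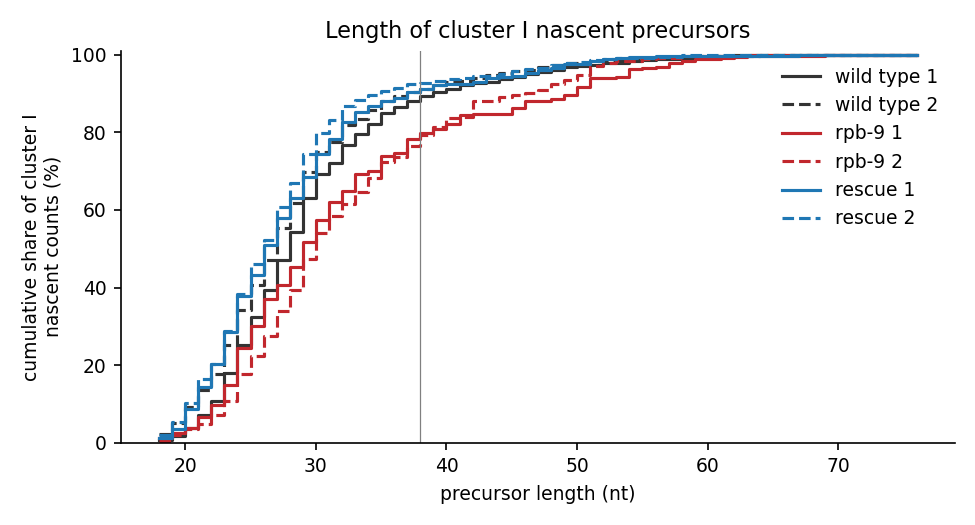
Cumulative share of cluster I nascent counts (percent, y axis) up to each precursor length (nt, x axis), with 1 line per library, solid for replicate 1 and dashed for replicate 2, and a vertical line at 38 nt. The *rpb-9* lines run to the right of the others, with 21.8% and 23.6% of counts at 38 nt or more, against 9.65% and 12.0% in wild type.

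Per locus the difference was smaller. Over 84 members with at least 5 nascent counts in both genotypes, the mean length in *rpb-9* minus wild type had a median of 0.330 nt (quartiles -1.84 and 4.46 nt), with 47 longer and 35 shorter. In cluster II the median was 0.914 nt over 1557 loci. With 10 counts in every library, only 5 members could be tested, and 0 were called of 0% of 1117 loci with limma (0 members at an unadjusted p under 0.05, against 6.71% of all loci longer and 6.27% shorter). 21UR-10495 had mean lengths of 29.5 and 30.1 nt in wild type and 31.9 and 31.6 nt in *rpb-9*, a difference of 1.97 nt (SE 0.90, limma adjusted p = 0.44). 21UR-8044 differed by 0.16 nt (SE 0.88, limma adjusted p = 0.96).

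In the nucleoplasmic fraction the medians were 27 and 26 nt in wild type, 31 and 27 nt in *rpb-9* and 28 and 27 nt in the rescue. The *rpb-9* values rest on 23 and 14 distinct sequences, and those of the 3 genotypes overlapped (exact permutation p = 0.667 for *rpb-9* against wild type, n = 2). The difference of 2.5 nt was 0.5 nt without the first *rpb-9* library and 4.5 nt without the second. Weighted by counts, the medians were 27 and 27 nt in wild type, 30 and 29 nt in *rpb-9* and 28 and 27 nt in the rescue, with both *rpb-9* libraries above all others (exact permutation p = 0.333, n = 2). The nascent median of cluster I minus that of cluster II was -1 and -2 nt in wild type and -1 and 0 nt in *rpb-9*, a difference of 1 nt (exact permutation p = 0.667, n = 2), which is within the spread between libraries.

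The mature piRNAs listed for cluster I had a lower summed level in *rpb-9* and a level close to wild type in the rescue. All 4317 genes in the mature table were lower in *rpb-9*. How the genes were chosen for the table is not given in the sources used here, so the shared direction is not read as a result about these members and only sizes are described. The table held 29.6% of the 2816 annotated piRNA genes in cluster I and 29.5% of the 11388 in cluster II. Summed over the 833 members, the mature level was 6014 RPM (mature reads scaled to a fixed library size) in wild type, 865 in *rpb-9* and 6675 in the rescue, which is 14.4% and 111% of wild type. In cluster II it was 24.7% and 98.1%. There is 1 value per genotype, so none of these differences was tested.

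The share of cluster I in the mature RPM of both clusters was 6.64% in wild type, 3.98% in *rpb-9* and 7.45% in the rescue. The fall in *rpb-9* has the direction of the precursor share, measured in another kind of library and over the listed genes only. The rescue differs, since its mature share was above wild type. Its mean precursor share was below wild type, at 4.33% against 5.18% in the nascent and 4.46% against 6.34% in the nucleoplasmic fraction.

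The difference between the clusters depended on the scale. On the deposited log2(RPM + 1) scale, the median difference of *rpb-9* from wild type was -0.60 over cluster I and -0.75 over cluster II, and 469 members were under 1 RPM in wild type, where a pseudocount of 1 shrinks differences. Within bins of wild-type level, cluster I was lower in all 7. At 63 RPM and over the median difference was -3.01 for 20 members and -2.09 for 185 loci of cluster II. Among 72 members with at least 16 RPM in wild type the median was -2.82, and 90.3% of them lay below the cluster II median of -2.03.

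**Figure D4:**
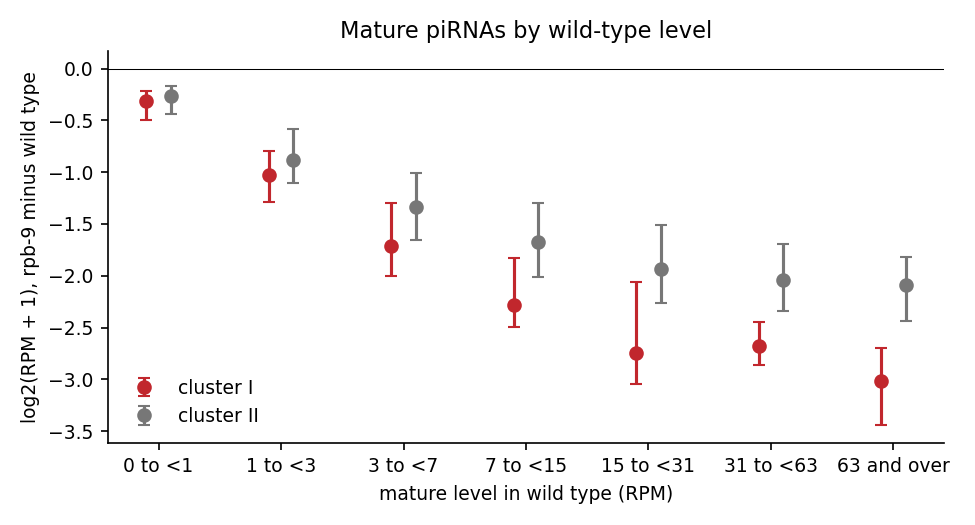
Median difference of *rpb-9* from wild type in log2(RPM + 1) (y axis) by wild-type mature level (RPM, x axis), for cluster I and cluster II, with quartiles as bars. The cluster I median is below that of cluster II in all 7 bins, with -3.01 against -2.09 at 63 RPM and over.

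The 5 most abundant members were 21UR-5141, 21UR-8059, 21UR-6090, 21UR-1804 and 21UR-4199. The mature level of 21UR-5141 was 428 RPM in wild type, 49.2 in *rpb-9* and 464 in the rescue. 21UR-8059, in an intron of the glutamate receptor gene *mgl-3* on the same strand, was at 242, 11.0 and 274 RPM, which at 4.55% of wild type was the largest decrease on the log2(RPM + 1) scale among members with at least 16 RPM. 21UR-6090 was at 234.7, 16.04 and 244 RPM. 21UR-1804, in an intron of *kcc-2*, was at 222, 35.7 and 225 RPM, and 21UR-4199 at 222, 20.1 and 244 RPM. All 5 were back at or above wild type in the rescue.

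21UR-6751, outside protein-coding genes, was at 117 RPM in wild type, 7.35 in *rpb-9* and 115 in the rescue, and had the next largest decrease after 21UR-8059 among members with at least 16 RPM. Among members with at least 16 RPM in wild type, the smallest decreases on the log2(RPM + 1) scale were at 21UR-1374 (90.4, 38.7 and 143 RPM), 21UR-13604 (18.2, 6.38 and 35.0 RPM) and 21UR-2245 (48.5, 17.4 and 71.2 RPM). These 3 retained 42.8%, 35.1% and 36.0% of wild type and were above wild type in the rescue.

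Precursor and mature levels of a member were loosely related. Over 299 members with both a nascent wild-type signal and a mature value, Spearman's rho was 0.329 and Pearson's r of the log2 values was 0.359, as a description across loci that share libraries. 21UR-5141, the most abundant mature member, was counted 10 and 17 times in wild-type nascent libraries and never in *rpb-9*, while 21UR-8044, the most counted precursor, had no entry in the mature table. 21UR-8059 was counted 49 and 38 times in wild-type nascent libraries, 3 and 6 in *rpb-9* and 18 and 19 in the rescue, and was called lower (log2 fold change -2.97, SE 0.706, edgeR adjusted p = 0.0367). By bins of 500 kb the mature level in *rpb-9* was 16.2%, 12.7%, 12.5%, 17.5% and 25.8% of wild type. The last bin was the least reduced, as in the nascent fraction, but its 61 members summed to only 112 RPM in wild type. Over cluster I, members under 1 RPM kept 21.4% and those from 63 RPM 11.9%, and the bins were not matched for level. In the nucleoplasmic fraction the last bin had 9 counts in wild type and 0 in *rpb-9*.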

How the data were processed

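The authors deposited a table of capped precursors (1 line per distinct precursor and library, with whole read counts, a signal that is the count times 1 constant per library, and the length in nt) mapped to ce11. How the constant was set is not given in the sources used here, nor are the aligner settings for these libraries. The submitters' processing notes name STAR, BWA, featureCounts, MACS2 and DESeq2 without saying for which file. The mature table, deposited as log2(RPM + 1), holds 1 value per genotype from 5′ dependent libraries. How 3 libraries were combined is not given, so their depth is unknown and no error is printed.

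The library name sx1316 was taken as wild type by elimination, since the other names give *rpb-9* and rescue. Loci were named by the deposited IDs, and 784 of 789 matched an annotated gene of that name. At 44 members (positions 6014350 to 6049686) the annotation is 1 base off the table, and table positions were used. Counts of the 12 libraries were tested by edgeR 4.0.16 (quasi-likelihood, all 6 libraries of a fraction, library sizes from the authors' constants), lengths by limma 3.58.1, and single values by exact two-sided permutation. DESeq2 1.42.0, other scalings, filters, length summaries and left-out libraries were alternatives. The edgeR and limma steps were tested on simulated data.

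Members named are the 3 with most wild-type counts, the 3 largest called changes in each direction, the 5 highest mature values, and the 3 largest and smallest mature decreases from 16 RPM in wild type. 21UR-10495 was chosen after their values were seen. The members and lists were chosen with earlier results of these data known. A further 36 value columns of other experiments were not used here.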

Additional observations from a re-analysis of the deposited data

How the results depend on the processing

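The number of members called lower in the nascent fraction of *rpb-9*, 21 in the report, was 32 when scaled by total counts and 34 with DESeq2, and 0 to 7 when 1 library was left out. With the replicate number as a block it was 16. The members tested were 57 and 58 without a wild-type library, 85 without either *rpb-9* library and 87 in the other settings named. The share of all loci called under each setting is not given, so these counts show only how far the number moves. Whether libraries with the same replicate number were processed together is not given. Correlations of same-numbered libraries were -0.05 to 0.18, which cannot decide this, since noise in low counts also lowers a correlation. The block changed no other call. Rescue against *rpb-9*, with 0 members called, gave 4 of 87 with DESeq2 and 5 of 774 without a filter, again with no share over all loci. The nascent median length difference of 3 nt was 2 nt weighted by counts and 2 nt over sequences with at least 2 counts. The difference between clusters in it was 0 weighted by counts. The median mature difference of -0.60 was -1.79 with a pseudocount of 0.1 and -1.53 from 1 RPM, and that of the rescue, 0.06, was 0.12 and 0.16. The nascent share difference of -3.03 points was -4.10 for distinct sequences. Added after seeing the data, it was -2.30 without the 10 most counted loci of each cluster and -2.14 for loci starting with T, and the nucleoplasmic one, -4.63, was -3.30 and -3.05. The summed nucleoplasmic signal, at -2.81 in log2, was -1.44 by total counts. No member could be fitted for nucleoplasmic length. The nucleoplasmic values of cluster I rest on 31 to 434 counts per library.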
